A study of Mus musculus with 25 samples.

Results

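The genes described here are Vegfa, which encodes vascular endothelial growth factor A, and 6 genes that mark the endothelium of blood vessels: the VEGF receptors Kdr and Flt1, the angiopoietin receptor Tek, the junction proteins Pecam1 and Cdh5, and the surface glycoprotein endomucin, Emcn. They were chosen by symbol from the deposited table, taking the entry with the highest mean where a symbol occurs more than once, and they make up 7 of its 47069 genes. All 7 were among the 19141 genes with a mean of at least 3 that were tested. The list was proposed with the GnRH against placebo results of these animals already known. The values of the 7 genes in that comparison are therefore a description, given with no p-value.

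The pituitaries came from 25 hypogonadal mice, genotype hpg/hpg, which carry a deletion that removes gonadotropin-releasing hormone (GnRH). Animals of all 4 groups share this genotype, so none of them makes its own GnRH, and the treated animals had it only from injection. The groups were 8 GnRH males, 6 placebo males, 6 GnRH females and 5 placebo females. GnRH animals were given 1 µg into the peritoneum daily over 10 days, placebo animals had saline, and tissue was taken 1 h after the last dose. Each numbered sample gave 1 library of polyadenylated RNA and is called an animal here. The labels give neither age nor batch and do not say whether glands were pooled, so p-values measure the spread between these samples. All tissue was taken at that 1 time after repeated doses, so effects of the last dose and of repeated dosing cannot be told apart.

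VEGF-A is a secreted growth factor that acts on endothelial cells. Kdr (VEGFR2) is its main signalling receptor there, whereas Flt1 (VEGFR1) binds VEGF-A tightly, signals weakly and has a soluble form that traps the ligand. Tek (TIE2) binds the angiopoietins, which steady or loosen the vessel wall. The anterior pituitary is filled with fenestrated capillaries, through which hypothalamic releasing hormones arrive and pituitary hormones leave, and hormone-producing and folliculostellate cells of the gland are known to make VEGF-A.

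Values were regularized log2 values, a scale on which the authors' software evens out library size and shrinks genes with few reads towards their mean. They are not divided by gene length, so levels are compared between animals for 1 gene and never between genes. The tissue label was checked on hormone genes, with means over all animals of 21.45 for Gh (growth hormone), 17.40 for Prl (prolactin) and 18.50 for Pomc. Xist lay between 7.90 and 8.89 in males and between 13.76 and 14.32 in females, and Ddx3y between 9.30 and 9.94 in males and between 6.44 and 6.71 in females, so the sex labels held in all 25 libraries. Fshb, the FSH subunit that GnRH is known to drive, was higher with GnRH by 2.77 (SE 0.244, adjusted p = 1.52e-07, limma) in males and by 2.07 (SE 0.274, adjusted p = 0.000347, limma) in females. The number of reads per library is unknown. Correlations between libraries lay between 0.992 and 0.998.

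On the mouse genome build GRCm38 (mm10), Vegfa (ENSMUSG00000023951) lies at chr17:46016993-46032369 on the minus strand, Kdr (ENSMUSG00000062960) at chr5:75932827-75978458 on the minus strand and Flt1 (ENSMUSG00000029648) at chr5:147561604-147726011 on the minus strand. Tek (ENSMUSG00000006386) lies at chr4:94739289-94874976 on the plus strand, Pecam1 (ENSMUSG00000020717) at chr11:106654217-106750628 on the minus strand, Emcn (ENSMUSG00000054690) at chr3:137341067-137432185 on the plus strand and Cdh5 (ENSMUSG00000031871) at chr8:104101625-104144511 on the plus strand. Promoter sequence from RefSeq (GRCm38.p6) was matched by symbol for 5 of the 7 genes: Vegfa, Kdr, Flt1, Emcn and Tek. The 250 bases given are those before the start of Vegfa, the ligand, of Emcn, the endothelial gene with the largest difference in males, and of Flt1, the endothelial gene with the largest difference in females. They are written 5′ to 3′ on the strand of the gene, and capitals mark the letters of the motifs searched. Vegfa has 2 starts in this table and the upstream one is shown, from chr17:46032378-46032627 on the minus strand; Emcn comes from chr3:137340828-137341077 on the plus strand and Flt1 from chr5:147726012-147726261 on the minus strand.
Vegfa: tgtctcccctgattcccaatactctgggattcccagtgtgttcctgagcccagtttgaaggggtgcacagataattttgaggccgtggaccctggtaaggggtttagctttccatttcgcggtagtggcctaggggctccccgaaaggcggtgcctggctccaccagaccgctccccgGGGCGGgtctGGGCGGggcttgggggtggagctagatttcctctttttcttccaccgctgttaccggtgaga
Emcn: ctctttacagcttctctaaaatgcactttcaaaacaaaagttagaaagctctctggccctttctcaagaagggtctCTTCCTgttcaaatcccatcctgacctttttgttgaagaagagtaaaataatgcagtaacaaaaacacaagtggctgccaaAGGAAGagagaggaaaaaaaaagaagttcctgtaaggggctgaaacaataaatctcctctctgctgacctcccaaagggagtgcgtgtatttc
Flt1: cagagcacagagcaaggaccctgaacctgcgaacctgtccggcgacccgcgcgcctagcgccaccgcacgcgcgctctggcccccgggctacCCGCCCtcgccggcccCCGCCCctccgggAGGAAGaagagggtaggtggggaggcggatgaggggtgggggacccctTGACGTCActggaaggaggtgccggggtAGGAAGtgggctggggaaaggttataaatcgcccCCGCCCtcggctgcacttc

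The motifs searched on both strands were the GC box GGGCGG, the cyclic AMP response element TGACGTCA, the AP-1 site TGANTCA, the core of the hypoxia response element ACGTG and the ETS core AGGAAG. The Vegfa window held 2 GC boxes, whose first bases lie 72 and 62 bases before the start, and no other of these motifs. The window of the other Vegfa start, chr17:46025164-46025413, lies within the Vegfa gene and held 1 GC box and 1 hypoxia core. The Emcn window held 2 ETS cores and no GC box, and at 40.8% its GC content was the lowest of the 6 windows, against 59.2% for the Vegfa window shown and 70.4% for Flt1. Flt1 had 3 GC boxes, 2 ETS cores and 1 cyclic AMP element, which began 81 bases before its start. Kdr had 2 GC boxes, and Tek had none of the motifs. No 2 matches overlapped. Among 32851 mouse promoter windows of the same length, 32.7% held a GC box, 1.5% the cyclic AMP element, 6.7% an AP-1 site, 16.6% a hypoxia core and 29.5% an ETS core.

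The GnRH against placebo comparison measures how the pituitary transcriptome differs once animals that lack GnRH have been given it. Vegfa was higher with GnRH in both sexes, by 1.39-fold in males and 1.43-fold in females, and was the only one of the 7 genes whose GnRH and placebo groups did not overlap, which held in females. Over all genes tested, every GnRH animal lay above every placebo animal for 0.345% in males and 0.528% in females. Among the endothelial genes, Emcn, Kdr and Flt1 had differences above 0.2 on the log2 scale in at least 1 sex, and Pecam1, Cdh5 and Tek had smaller ones. All 7 differences were positive in males and in females. Expression was measured in whole glands, so more endothelial cells and more RNA of these genes per cell cannot be told apart.

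**Figure D1:**
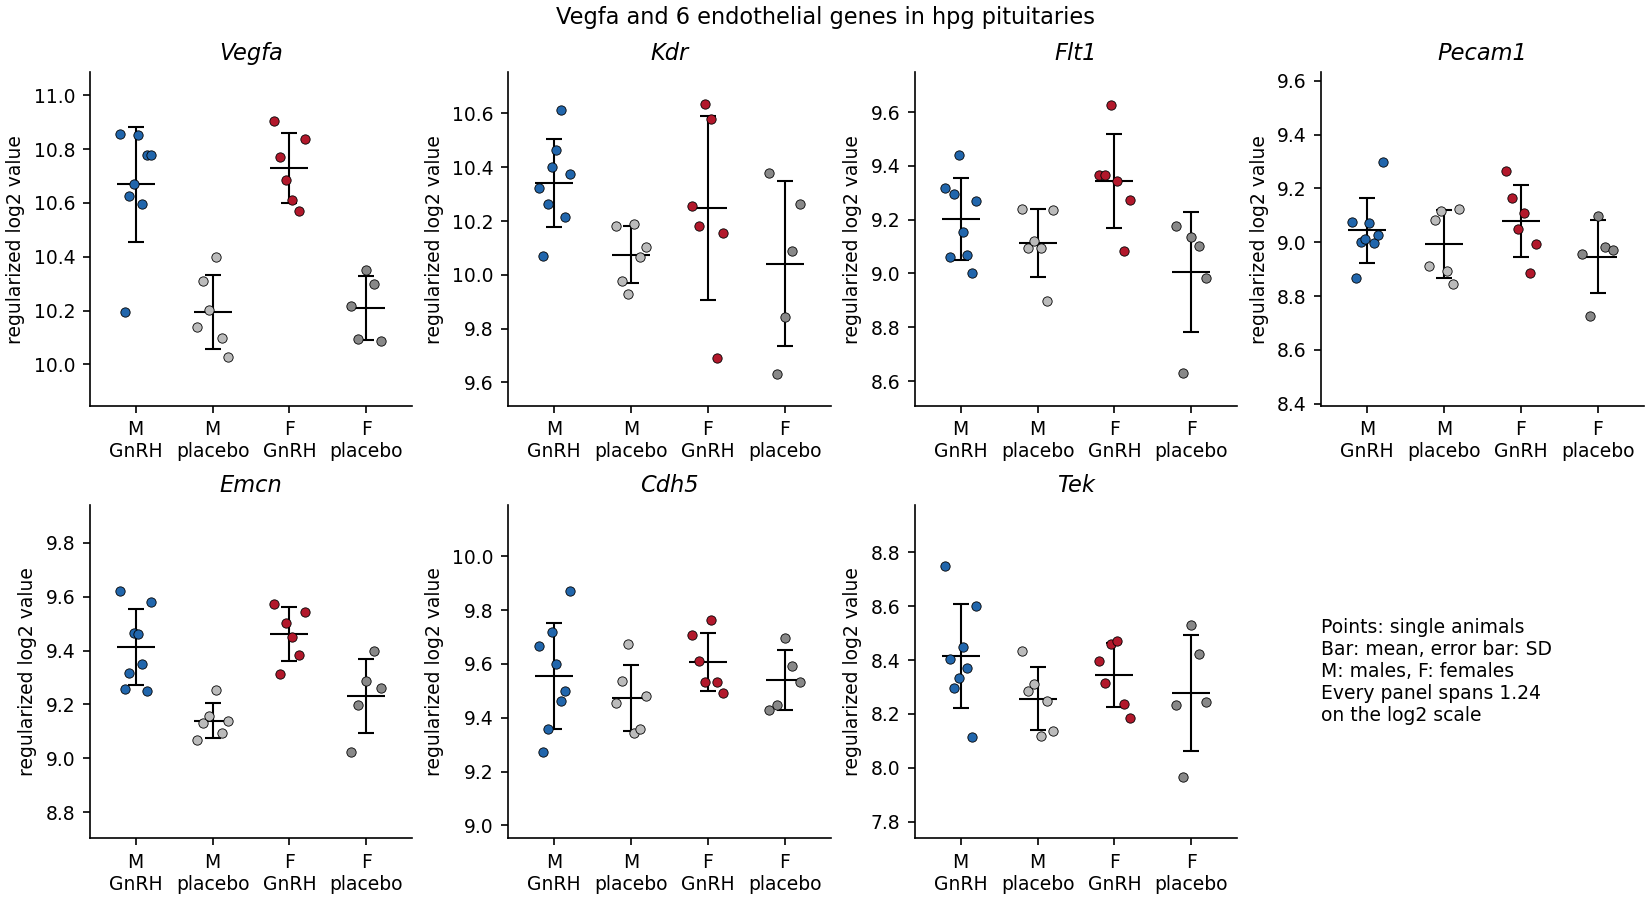
Regularized log2 value (y axis) of Vegfa and the 6 endothelial genes in every animal, by sex and treatment (x axis, M males, F females); points are animals, the bar is the mean and the error bar the SD (8 GnRH males, 6 placebo males, 6 GnRH females, 5 placebo females). Every panel spans the same height, and the Vegfa panel shows the widest gap between GnRH and placebo, with 1 GnRH male at 10.20 among the placebo values.

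Vegfa in the 8 GnRH males had a lowest value of 10.20, a median of 10.72 and a highest of 10.85, against 10.03, 10.17 and 10.40 in the 6 placebo males. Apart from animal 19, the GnRH male at 10.20, every GnRH male lay above every placebo male (7 of 8). The male means were 10.67 ± 0.215 (SD, n = 8) with GnRH and 10.20 ± 0.138 (SD, n = 6) with placebo, a log2 difference of 0.47 (SE 0.0825). Vegfa in the 6 GnRH females ran from 10.57 over a median of 10.73 to 10.90, whereas the 5 placebo females had 10.22, 10.10, 10.35, 10.30 and 10.09. All 6 GnRH females thus lay above the highest placebo female. The female means were 10.73 ± 0.130 (SD, n = 6) with GnRH and 10.21 ± 0.118 (SD, n = 5) with placebo, a difference of 0.52 (SE 0.0925). Of all genes tested, 99.55% in males and 99.72% in females had a difference at or below that of Vegfa.

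Kdr, the main signalling receptor, had a lowest, median and highest value of 10.07, 10.35 and 10.61 in GnRH males, against 9.93, 10.09 and 10.19 in placebo males. Here too 7 of 8 GnRH males lay above every placebo male, animal 19 being the lowest. The difference was 0.27 (SE 0.117) in males. In GnRH females Kdr had 9.69, 10.22 and 10.64, against 10.38, 9.63, 9.84, 10.09 and 10.26 in the 5 placebo females. The female groups overlapped over most of their range, with GnRH animal 10 and placebo animal 2 both low, and the difference was 0.21 (SE 0.131). Without placebo animal 2 the female Kdr difference was 0.11, and without GnRH animal 10 it was 0.32.

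Flt1, the receptor with the soluble trap form, had 9.00, 9.21 and 9.44 as lowest, median and highest value in GnRH males, against 8.90, 9.11 and 9.24 in placebo males. These groups overlapped, with 4 of 8 GnRH males above every placebo male, and the difference was 0.0869 (SE 0.0853), or 0.0434 without placebo male 16. In GnRH females Flt1 had 9.08, 9.36 and 9.63, whereas placebo females 1 to 5 had 9.18, 8.63, 9.14, 9.10 and 8.98. Of the GnRH females 5 of 6 lay above every placebo female, GnRH animal 10 being the exception. The female difference of 0.34 (SE 0.0957) was the largest among the endothelial genes in that sex, and it was 0.24 without placebo animal 2, whose 8.63 was the lowest Flt1 value of all animals.

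Tek, the angiopoietin receptor, had 8.11, 8.39 and 8.75 in GnRH males and 8.12, 8.27 and 8.43 in placebo males, a difference of 0.16 (SE 0.0857). Although 7 of 8 GnRH males lay above the placebo mean, the lowest GnRH male lay below the lowest placebo male. In females Tek had 8.19, 8.36 and 8.47 with GnRH, against 8.23, 7.97, 8.53, 8.42 and 8.24 in the placebo animals, a difference of 0.0648 (SE 0.0961). No GnRH female lay above every placebo female, and the difference was -0.0137 without placebo animal 2 and 0.128 without placebo animal 3.

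Emcn, a glycoprotein of capillary and venous endothelium, had 9.25, 9.41 and 9.62 in GnRH males, against 9.07, 9.13 and 9.25 in placebo males. The male groups touched at a single animal each, with 7 of 8 GnRH males above every placebo male and 5 of 6 placebo males below every GnRH male. The difference of 0.27 (SE 0.0634), or 1.21-fold, was the largest among the endothelial genes in males. In females Emcn had 9.31, 9.48 and 9.57 with GnRH, whereas the placebo animals had 9.02, 9.20, 9.29, 9.40 and 9.26. The difference there was 0.23 (SE 0.0711), with 4 of 6 GnRH females above every placebo female. Placebo female 4, at 9.40, was the single placebo female within the range of the treated ones.

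Pecam1 and Cdh5, which join endothelial cells to each other, had small differences. For Pecam1, GnRH males had 8.87, 9.02 and 9.30 and placebo males 8.84, 9.00 and 9.12, a difference of 0.0494 (SE 0.0683). GnRH females had 8.89, 9.08 and 9.27 for Pecam1 and placebo females 8.96, 8.72, 9.10, 8.98 and 8.97, a difference of 0.13 (SE 0.0765). For both sexes the Pecam1 ranges overlapped, with 1 of 8 GnRH males and 3 of 6 GnRH females above every placebo animal of their sex. Cdh5, the VE-cadherin of adherens junctions, had 9.27, 9.55 and 9.87 in GnRH males and 9.34, 9.47 and 9.67 in placebo males, a difference of 0.0813 (SE 0.0759). In females Cdh5 had 9.49, 9.57 and 9.76 with GnRH, against 9.43, 9.45, 9.70, 9.59 and 9.53 with placebo, a difference of 0.0674 (SE 0.0852). The lowest Cdh5 value among the males was that of GnRH animal 19. Without GnRH male 25 the male differences were 0.013 for Pecam1 and 0.036 for Cdh5. In females that of Pecam1 was 0.0758 without placebo animal 2, and that of Cdh5 was 0.0359 without GnRH animal 9 and 0.107 without placebo animal 3.

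**Figure D2:**
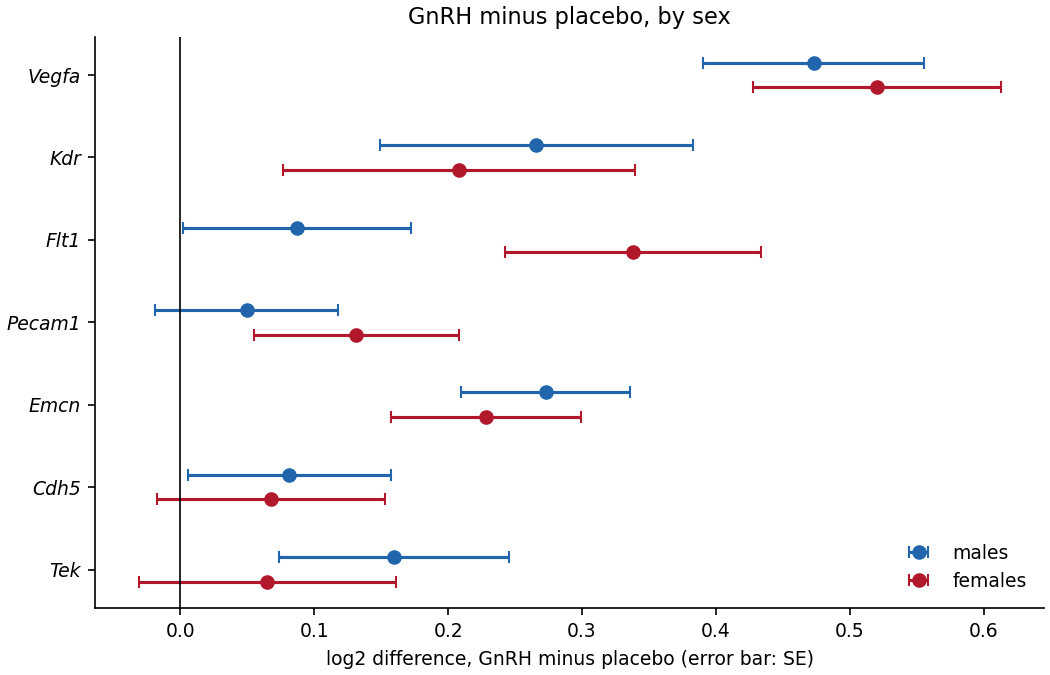
Log2 difference, GnRH minus placebo (x axis), of each gene (y axis) in males and females; points are the fitted differences and error bars their SE. Vegfa has the largest difference in both sexes (0.47 in males, 0.52 in females), and the widest distance between the sexes is at Flt1 (0.0869 in males, 0.34 in females).

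Past an adjusted p of 0.05 over all genes tested (limma) were 2 of the 7 genes in males, Vegfa and Emcn, where 0.496% of all genes tested passed, and 1 of 7 in females, Vegfa, where 0.0993% passed. Because the genes were picked with these comparisons known, nothing is read from those counts. In females Vegfa was not past this threshold without placebo animal 5 or GnRH animals 6 or 11. In males Emcn was not past it without placebo animals 12, 13, 14, 16 or 17 or GnRH animals 18, 21, 22 or 25.

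The difference between the sexes in the GnRH effect was tested as an interaction term. No gene passed this test (0% of 19141, with 529 at an unadjusted p under 0.05, limma), and all 7 genes had adjusted p = 0.999, with 0 of them at an unadjusted p under 0.05. For Vegfa the effect in males minus that in females was -0.0471 (SE 0.124), and an interval of 2 SE ran from -0.29 to 0.20. Flt1 had the widest distance, -0.25 (SE 0.128), with an interval from -0.51 to 0.0052, and the value was -0.16 without placebo female 2. The intervals of the other 5 genes all included 0, and the widest among them was that of Kdr, from -0.29 to 0.41.

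Males against females were tested within each treatment. With GnRH, 0.0522% of the genes tested passed and 0 of the 7 did, with adjusted p between 0.921 and 0.967 (limma). With placebo, 0.047% passed and 0 of the 7 did, each with adjusted p = 0.999 (limma). In both, 0 of the 7 were at an unadjusted p under 0.05. Vegfa averaged 10.67 in GnRH males and 10.73 in GnRH females, a difference of -0.0611 (SE 0.0825), and 10.196 in placebo males and 10.21 in placebo females, a difference of -0.014 (SE 0.0925). For Vegfa, intervals of 2 SE ran from -0.23 to 0.10 with GnRH and from -0.20 to 0.17 with placebo. Flt1 was the gene with the largest sex difference in both settings, at -0.14 (SE 0.0853) with GnRH and 0.11 (SE 0.0957) with placebo.

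How the 7 genes varied between animals of the same group was a measure that their choice did not use. Group means were removed and the deviations correlated over the 25 animals, for 21 pairs of genes, with two-sided permutation p-values adjusted over the pairs. All 21 coefficients were positive over the 25 animals, although that of Vegfa with Kdr was -0.0057 without GnRH male 19. The median Pearson r was 0.49 over the 15 pairs of endothelial genes and 0.38 over the 6 pairs of Vegfa with an endothelial gene. Points of 1 animal share a library and its scaling, so a shared shift of a library enters every pair. After centring each library on its median the 2 medians were 0.46 and 0.35.

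**Figure D3:**
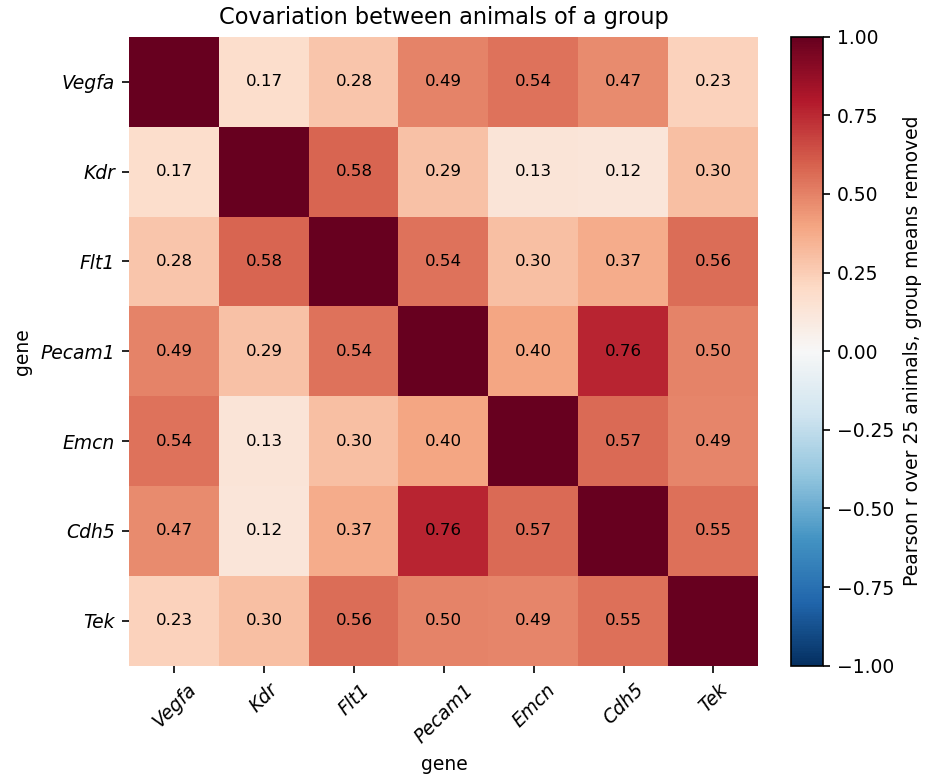
Pearson r between pairs of genes (both axes) over 25 animals after removal of the group means, with the colour scale from -1 to 1. Pecam1 with Cdh5 has the highest coefficient (0.76), and the lowest are those of Kdr with Cdh5 (0.12) and with Emcn (0.13).

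Pecam1 and Cdh5, both proteins of the junctions between endothelial cells, had r = 0.76 (adjusted permutation p = 0.00042) and Spearman's rho = 0.78 (adjusted permutation p = 0.00063). Their r was 0.70 without animals 2 and 25, which lay farthest from the median of Pecam1, and the pair passed in 25 of 25 repeats that left out 1 animal. In all, 9 of 21 pairs passed with Pearson's r and 2 with Spearman's rho, the other being Cdh5 with Tek (r = 0.55, adjusted permutation p = 0.0352; rho = 0.59, adjusted permutation p = 0.0419). That pair had r = 0.57 without animals 19 and 25 and passed in 15 of 25 repeats. Of all genes tested, 0.0313% correlated with Pecam1 at least as highly as Cdh5 did, and 0.653% with Cdh5 as highly as Tek did.

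Both VEGF receptors, Kdr and Flt1, had r = 0.58 (adjusted permutation p = 0.0352) and rho = 0.43 (adjusted permutation p = 0.107). Without animals 2 and 10, the lowest for Kdr, r was 0.27, so this relation rests on those animals. Kdr with Pecam1 had r = 0.29, and -0.14 without the same animals. Flt1 passed with Pecam1 (r = 0.54) and with Tek (r = 0.56), both at an adjusted permutation p = 0.0352, with rho of 0.50 and 0.48 (adjusted permutation p = 0.0655 and 0.0877). Without animals 2 and 8 these coefficients were 0.49 and 0.38. Such coefficients were common for Flt1, since 4.94% of all genes tested correlated with it at least as highly as Kdr did, 7.06% as highly as Pecam1 and 6.17% as highly as Tek. For Kdr, 4.49% of all genes did so as highly as Flt1.

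Vegfa had its highest coefficient with Emcn, r = 0.54 (adjusted permutation p = 0.0352) and rho = 0.54 (adjusted permutation p = 0.0506). It was 0.42 without animals 15 and 19, the farthest for Vegfa, and the pair passed in 14 of 25 repeats. With Pecam1 Vegfa had r = 0.49 (adjusted permutation p = 0.0491) and rho = 0.44 (adjusted permutation p = 0.101), and r was 0.53 without the same animals. Of all genes tested, 1.22% correlated with Vegfa at least as highly as Emcn did, and 2.15% as highly as Pecam1. With its own receptors the coefficients of Vegfa were lower, at 0.17 for Kdr and 0.28 for Flt1, and neither passed (adjusted permutation p = 0.419 and 0.248). Without animals 15 and 19 they were -0.058 and 0.23. Emcn with Cdh5 had r = 0.57 (adjusted permutation p = 0.0352), and Pecam1 with Tek r = 0.50 (adjusted permutation p = 0.0491), which was 0.27 without animals 2 and 25. Within single groups the median r over the endothelial pairs was 0.46 in the 8 GnRH males, 0.0651 in the 6 placebo males and 0.47 in the 6 GnRH females. Over the pairs with Vegfa it was 0.55, -0.11 and 0.17 in the same groups, so the pooled 0.38 did not hold in each of them. Placebo females, at 5 animals, were taken as too few for a correlation within the group and were left out here.

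Some animals at the ends of these ranges recurred across genes. GnRH male 19 was the lowest of its group for 4 of the 7 genes (Vegfa, Kdr, Pecam1 and Cdh5), and GnRH female 10 for 4 (Vegfa, Kdr, Flt1 and Pecam1). Placebo female 2 was the lowest for Kdr, Flt1, Pecam1 and Tek, and GnRH male 24 for Flt1, Emcn and Tek. At the other end, GnRH male 18 was the highest for Vegfa, Emcn and Tek, GnRH female 6 for Vegfa, Pecam1 and Emcn, and placebo female 3 for Vegfa, Pecam1, Cdh5 and Tek. Others stood at both ends. Placebo male 15 was the highest for Vegfa, Kdr and Emcn and the lowest for Cdh5 and Tek. Placebo female 1 was the highest for Kdr and Flt1 and the lowest for Emcn and Cdh5.

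By the same measure over the 25 animals, the genes whose deviations were most like those of Vegfa were Adam11 (r = 0.74), Spp1 (0.74), Csrp2 (0.73), Igfbp7 (0.72) and Ier5 (0.72). Csrp2, a LIM-domain protein known from smooth muscle, rose with GnRH in both sexes, by 0.67 (SE 0.106, adjusted p = 0.00134, limma) in males and 0.64 (SE 0.119, adjusted p = 0.0192, limma) in females. Spp1, which encodes osteopontin, had differences of 0.90 and 0.997 that missed the threshold (adjusted p = 0.196 in males and 0.254 in females, limma). Kdr was most like Timp3 (0.91), Adgrl4 (0.87) and Hlf (0.86), and Flt1 most like Slc6a6 (0.88), Ppp1r15b (0.86) and Fstl1 (0.86). Pecam1 was most like Cd93 (0.83), an endothelial receptor, Mrc2 (0.82) and Mcam (0.79), an adhesion molecule of endothelium and pericytes. For Emcn the nearest were Cep83 (0.73), Tpm1 (0.71) and the Notch ligand Dll4 (0.70), for Cdh5 Oasl1 (0.78), the basement membrane collagen Col4a1 (0.76) and Cd93 (0.74), and for Tek Dazap2 (0.73), Ifi44 (0.70) and the VEGF coreceptor Nrp1 (0.69). Each coefficient was picked as the highest over the genes tested, so these values are a description.

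The lists of related genes and of markers of other cells, like the 7 genes, were chosen with earlier results of these data known. Their counts and p-values are therefore a description too. Around the 7 genes, 6 lists of the same pathway or cell type held 78 genes, of which 75 were tested. With limma adjusted over all genes, 0 of these 75 passed in males and 0 in females. Of all genes tested, 0.496% passed in males and 0.0993% in females. An unadjusted p under 0.05 was reached by 21 of the 75 in males and 24 in females. Of all genes tested, 6.42% in males and 9.57% in females reached that level. Lower with GnRH at that level were 1 of the 21 in males, Egln1, and 5 of the 24 in females, Angpt1, Clec14a, Apln, Egln1 and Pdk1. The 7 other VEGF ligands, receptors and coreceptors had a median difference of 0.13 in males, where 5 were positive, and of 0.11 in females, where 7 were. Over all genes tested the medians were -0.0022 and 0.0003, and 48.5% of differences in males and 50.1% in females were positive. At an unadjusted p under 0.05 were 3 of the 7 in males and 2 in females, against the 6.42% and 9.57% of all genes. Vegfd, a ligand of Flt4 in the mouse, had 0.31 in males (SE 0.0759, adjusted p = 0.0623, limma). The coreceptor Nrp2 had 0.39 in males (adjusted p = 0.195, limma) and 0.28 in females (adjusted p = 0.509, limma).

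Nrp1, the other coreceptor, had a difference of -0.0294 in males (SE 0.049) and of 0.21 in females (SE 0.055, adjusted p = 0.149, limma). GnRH males had 9.50, 9.59 and 9.68 as lowest, median and highest value and placebo males 9.52, 9.61 and 9.72. GnRH females had 9.61, 9.79 and 9.85 and placebo females 9.42, 9.60 and 9.65 as lowest, median and highest. Nrp1 was the 1 gene of the 75 whose effect differed between the sexes at an unadjusted p under 0.05, at -0.24 (SE 0.0737), and it missed the threshold over all genes (adjusted p = 0.999, limma). Over all genes tested, 529 of 19141 reached that unadjusted level, so nothing is read from this count.

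In the angiopoietin and TIE system, Tie1, the orphan receptor that pairs with Tek, had 0.29 in males (SE 0.0748, adjusted p = 0.0918, limma) and 0.32 in females (SE 0.0839, adjusted p = 0.151, limma). Tie1 had 9.12, 9.38 and 9.65 in GnRH males, 8.99, 9.10 and 9.26 in placebo males, 9.30, 9.41 and 9.70 in GnRH females and 9.00, 9.09 and 9.26 in placebo females as lowest, median and highest value. The female Tie1 groups did not overlap, as was so in this direction for 0.528% of all genes. The ligands had differences below 0, with -0.11 in males and -0.38 in females for Angpt1 (adjusted p = 0.999 and 0.467, limma) and -0.23 and -0.16 for Angpt2 (adjusted p = 0.823 and 0.729, limma). Angpt4, below the minimum mean, was not tested.

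The 24 other endothelial markers had positive differences in 21 cases in males, with a median of 0.11, and in 20 cases in females, with a median of 0.12. At an unadjusted p under 0.05 were 8 and 10 of them, against 6.42% and 9.57% of all genes. One of the 10 in females was lower, Clec14a, an endothelial lectin-like receptor, with -0.19 (adjusted p = 0.478, limma), and it had -0.0963 in males (adjusted p = 0.999, limma). Cd93 had 0.33 in both sexes (adjusted p = 0.351 in males and 0.418 in females, limma). Plvap, which forms the diaphragms of fenestrated endothelium, had 11.83, 12.02 and 12.13 in GnRH males, against 11.67, 11.79 and 11.91 in placebo males, a difference of 0.195 (SE 0.0563, adjusted p = 0.158, limma). In females Ecscr had 0.27 (adjusted p = 0.139, limma), Egfl7 0.31 (adjusted p = 0.360, limma) and Ramp2, a part of the adrenomedullin receptor, 0.25 (adjusted p = 0.368, limma). Summed over the 24 markers on the linear scale, the log2 level ran from 13.12 to 13.42 in GnRH males, from 13.07 to 13.18 in placebo males, from 13.25 to 13.44 in GnRH females and from 13.10 to 13.27 in placebo females. Such sums weigh genes with high values most, here Plvap (mean 11.92). The mean of the 24 log2 values ran from 7.32 to 7.63 in GnRH males and from 7.33 to 7.42 in placebo males. In females this mean ran from 7.43 to 7.66 with GnRH and from 7.25 to 7.52 with placebo.

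**Figure D4:**
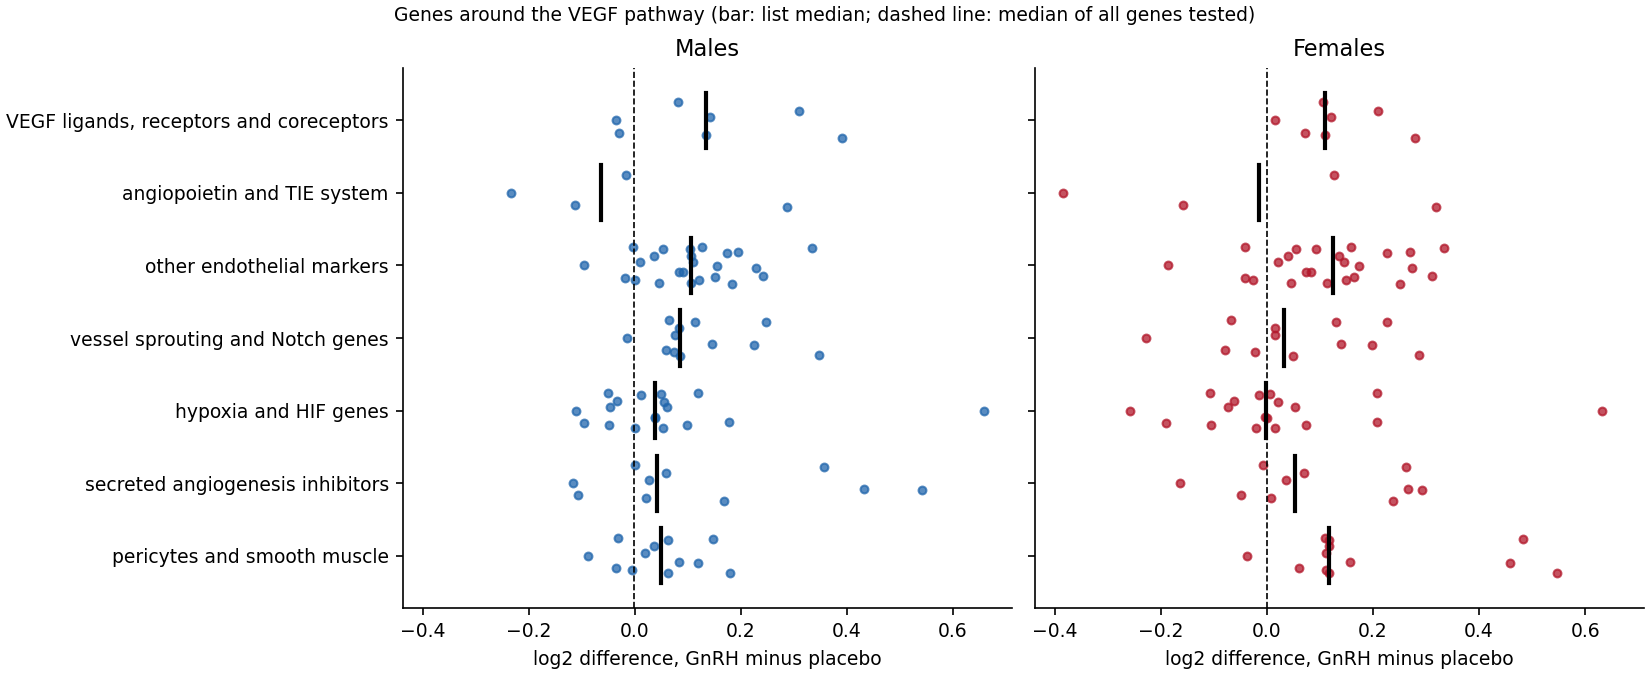
Log2 difference, GnRH minus placebo (x axis), of single genes (points) in 7 lists (y axis), in males and females; the bar is the median of the list and the dashed line the median of all genes tested. The 24 other endothelial markers lie mostly right of the dashed line (medians 0.11 in males and 0.12 in females). The hypoxia list lies on both sides of it (medians 0.0378 and -0.0009), with Slc2a1 farthest to the right (0.66 in males, 0.63 in females).

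Of the 18 hypoxia and HIF genes tested, 12 were positive in males and 9 in females, with medians of 0.0378 and -0.0009. An unadjusted p under 0.05 (limma) was reached by 3 in males (2 higher) and 5 in females (3 higher), against 6.42% and 9.57% of all genes. Slc2a1, the glucose transporter GLUT1, stood apart within this list, with 9.84, 10.45 and 11.34 in GnRH males against 9.81, 9.96 and 10.04 in placebo males, and 9.78, 10.52 and 10.98 in GnRH females against 9.80, 9.84 and 9.93 in placebo females. Its differences were 0.66 (SE 0.173, adjusted p = 0.0946, limma) and 0.63 (SE 0.193, adjusted p = 0.252, limma). The SD of Slc2a1 was 0.509 in GnRH males and 0.0996 in placebo males. Egln1, an oxygen sensor, had -0.0959 in males and -0.11 in females (adjusted p = 0.702 and 0.495, limma). Car9 was below the minimum mean.

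Among 12 genes of vessel sprouting and Notch signalling, 11 were positive in males and 8 in females, with medians of 0.0846 and 0.0326. Dll4, the Notch ligand of tip cells, had 0.22 (adjusted p = 0.441, limma) and 0.29 (adjusted p = 0.289, limma), and the apelin receptor Aplnr had 0.35 in males (adjusted p = 0.532, limma). Its ligand apelin, Apln, had 0.0586 in males (adjusted p = 0.999, limma) and -0.23 in females (adjusted p = 0.509, limma). Of 10 secreted inhibitors of angiogenesis, 8 were positive in males and 7 in females. Thbs1, thrombospondin 1, had 0.54 in males (SE 0.171, adjusted p = 0.237, limma) and 0.29 in females (adjusted p = 0.629, limma).

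Markers of other cells of the gland were measured beside the endothelial genes. Of 12 genes of pericytes and smooth muscle, 8 were positive in males and 11 in females, with medians of 0.049 and 0.12. Past the limma threshold were 0 in either sex, where 0.496% of all genes tested passed in males and 0.0993% in females. Of the 12, 1 in males and 4 in females had an unadjusted p under 0.05 (limma), against 6.42% and 9.57% of all genes. The summed log2 level of these 12 genes ran from 12.28 to 12.57 in GnRH males, 12.24 to 12.38 in placebo males, 12.15 to 12.54 in GnRH females and 12.20 to 12.41 in placebo females. Of 5 fibroblast genes 0 were positive in males and 3 in females, with summed levels from 12.64 to 12.99 in GnRH males, 12.80 to 13.27 in placebo males, 12.80 to 13.38 in GnRH females and 12.89 to 13.12 in placebo females. Of 8 macrophage genes 2 were positive in males and 6 in females, and of 4 lymphatic genes 2 in each sex. Stem and folliculostellate genes were positive in 3 of 6 cases in males and 2 of 6 in females, and posterior lobe genes in 2 of 5 and 4 of 5. The 10 genes of anterior pituitary hormone cells were positive in 8 cases in males and 9 in females, with medians of 0.15 and 0.42, above those of the endothelial markers. Of these 10, 4 in males and 5 in females had an unadjusted p under 0.05 (limma), against the same shares of all genes. Those 4 in males were Fshb, Gnrhr, Lhb and Cga. The rest of the list in males had 0.0002 (Gh), 0.18 (Prl), -0.16 (Pomc), -0.0726 (Tshb), 0.02 (Pou1f1) and 0.12 (Tbx19). In females these genes had 0.16, 0.38, 0.49, 0.18, -0.056 and 0.17 in the same order. Fshb rose in both sexes and Gnrhr, the GnRH receptor, in males (0.73, SE 0.151, adjusted p = 0.0171, limma). The summed level of this list ran from 21.44 to 21.95 in GnRH males, 21.43 to 21.99 in placebo males, 21.48 to 22.14 in GnRH females and 21.35 to 21.98 in placebo females. That sum mainly follows Gh, which had the highest mean of the list (21.45). The mean of the 10 log2 values, Fshb among them, ran from 13.94 to 14.27 in GnRH males and from 13.52 to 13.90 in placebo males. In females this mean ran from 14.01 to 14.35 with GnRH and from 13.55 to 13.86 with placebo. The 7 red blood cell genes, among them globins that the library kit depletes, were positive in 7 cases in males and 5 in females, with summed levels from 13.51 to 16.15 in GnRH males, 13.47 to 15.29 in placebo males, 13.79 to 15.22 in GnRH females and 13.47 to 16.94 in placebo females. All of these markers passed the minimum mean, so none was at 0, and their part in the endothelial differences was not tested.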

How the data were processed

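Polyadenylated RNA of 25 hpg pituitaries was sequenced. The authors deposited regularized log2 values per gene, as the name they gave the table says. The tools named in the submitters' processing notes are STAR, featureCounts and bcl2fastq, with the build mm10; their versions and the annotation were not given in the sources used here. Library depth is unknown because no counts were used. All value columns were matched to a sample by its label (0 left out).

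Means of the 4 groups were fitted to all 25 libraries with limma 3.58.1 in R 4.3.3 (trended prior, 21 residual degrees of freedom), on genes with a mean of at least 3. Tests were two-sided, with Benjamini-Hochberg adjustment over 19141 genes and a threshold of 0.05. Regularized values are shrunken, so differences of low genes are understated. Correlations used 100000 permutations within groups. Intervals are 2 SE either side. Summed list levels add the values back on the linear scale, so the genes with the highest values weigh most in them.

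Promoters came from a RefSeq table (GRCm38.p6) and gene positions from GENCODE.

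The 7 genes and the 14 lists were chosen with earlier results of these data known. Genes named are the 7, up to 4 per list and comparison by smallest p, and those most alike (5 for Vegfa, 3 for each other). The search for those most alike left out the 7 genes, predicted genes, pseudogenes and genes without a symbol. Alternatives were other scalings, filters, priors, weights, fewer groups and leaving out animals.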

Additional observations from a re-analysis of the deposited data

Results flagged for a closer look

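Vegfa in GnRH male 19 was 10.20 (10.195), whereas the next lowest of the 8 GnRH males had 10.60. The gap was 0.61 of the range of the group, over the 95% critical value of Dixon's test for a group of 8. Of 28 combinations of gene and group examined, this was the 1 past its critical value, and chance alone flags about 1 in 20. The same animal, in values looked up after this was seen, was the lowest GnRH male for Atf3 (6.50, others 7.71 to 10.71), Slc2a1 (9.84, others 10.29 to 11.34) and Csrp2 (8.24, others 8.63 to 9.12). Placebo males ran from 6.31 to 6.89 for Atf3, from 9.81 to 10.04 for Slc2a1 and from 7.91 to 8.19 for Csrp2. Animal 19 thus lay within the placebo range for Atf3 and Slc2a1 and above it for Csrp2. Its Fshb of 11.69 was the lowest but 1 of the 8 and lay above the placebo males, which ran from 9.05 to 9.94. Without animal 19 the Vegfa difference in males was 0.54, against 0.47 with it.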

How the results depend on the processing

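The number of genes past the threshold, GnRH against placebo, was 95 in males and 19 in females. It was 42 and 7 with no filter on low genes, and 239 and 62 with weights per library. Without GnRH males 18 and 21 together it was 38 in males. Leaving out 1 animal gave 46 to 153 in males (highest without GnRH animal 19, lowest without placebo animal 14) and 4 to 67 in females (highest without GnRH animal 10, lowest without GnRH animal 6). For males against females it gave 8 to 17 with GnRH (highest without GnRH female 10) and 7 to 9 with placebo, against 10 and 9 in the full data, and the interaction stayed at 0 in all 25 such fits. With no filter Vegfa in females was not past the threshold, and Emcn in males was not with no filter, with only the groups compared in the fit, or without GnRH males 18 and 21. The difference of Vegfa lay between 0.44 and 0.54 in males and between 0.49 and 0.56 in females over all settings. Slc2a1 in males passed with library weights and without GnRH animals 19 (male) or 10 (female). Tie1 in males passed without GnRH male 19, Vegfd in males without placebo animals 3 (female) or 13 (male) or GnRH males 20 or 22, and Nrp1 in females without GnRH female 10. The cause of these changes was not tested. No paired analysis was possible because no replicate number is shared between groups. Depth is unknown, so no counting error could be given.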

Other observations

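Smooth muscle genes had the largest differences among the vessel-wall lists in females, with 0.55 for Myh11 (SE 0.211, adjusted p = 0.418, limma), 0.48 for Tagln (SE 0.154, adjusted p = 0.279, limma) and 0.46 for Acta2 (SE 0.209, adjusted p = 0.492, limma), all contractile proteins. They were picked as the largest of a list of 12 with a median of 0.12, in which 11 were positive and Rgs5 had -0.0372. The mean log2 value of that list had an SD of 0.21 in GnRH females and of 0.0772 in placebo females. In males Myh11 had -0.0881 (SE 0.188), Acta2 -0.0351 (SE 0.186) and Tagln 0.18 (SE 0.137), each with adjusted p = 0.999 (limma). The effect of GnRH on Myh11 in males minus that in females was -0.64 (SE 0.282, adjusted p = 0.999, limma). Pdgfra, a fibroblast receptor, had -0.17 in males and -0.14 in females (adjusted p = 0.808 and 0.664, limma).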
